A study of Homo sapiens with 2 samples.

Results

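Transcripts of 8 transcription factors that direct kidney development were measured in the renal carcinoma line 786-O with and without intact SETD2. The genes are PAX2, PAX8, LHX1, WT1, HNF4A, EMX2, GATA3 and MECOM. They were taken by gene symbol from a list of kidney developmental factors, and all 8 had a row among the 23375 gene rows used. The knockout group was 1 RNA library of a 786-O line whose SETD2 gene had been knocked out by means of a zinc finger nuclease, an engineered enzyme targeted to one DNA sequence. The wild-type group was 1 library of 786-O with wild-type SETD2. 786-O is an established line of clear cell renal carcinoma, and it lacks functional VHL, so both groups share that background. SETD2 places the trimethyl mark on lysine 36 of histone H3 along transcribed genes. Both lines were grown in serum-containing RPMI medium. Whether the knockout line was 1 clone, and which lesion it carried, is not stated in the labels.

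Kidney tubules form from intermediate mesoderm under a small set of transcription factors. PAX2 and PAX8 are closely related paired-domain proteins that specify this lineage, and in mice the kidney does not form when both are lost. LHX1, a LIM homeodomain protein, acts in the nephric duct and in the patterning of the early nephron. WT1, a zinc finger protein, is needed for the kidney mesenchyme and later marks podocytes, the filtering cells of the glomerulus. HNF4A is a nuclear receptor of the proximal tubule and the liver. GATA3 acts in the nephric duct and stays on in the collecting duct, and EMX2 is a homeodomain protein of the ureteric bud in mice. MECOM is a zinc finger protein known from blood stem cells, and in zebrafish it acts in the distal nephron. PAX8 is also a diagnostic marker of renal carcinoma.

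The starts of these genes are shown for the member with the highest level and for the members counted at 0 fragments in one library. The RefSeq promoter table (GRCh38.p14) held windows for 7 of the 8 members, 19 windows in all, from 250 bases before to 50 after a transcript start, and it held none for LHX1. PAX8 and EMX2 had 1 window each, and for GATA3 the window with the most CpG dinucleotides is shown. Capitals mark CpG, the base pair step at which human DNA is methylated.
PAX8 (chr2:113278872-113279171, minus strand): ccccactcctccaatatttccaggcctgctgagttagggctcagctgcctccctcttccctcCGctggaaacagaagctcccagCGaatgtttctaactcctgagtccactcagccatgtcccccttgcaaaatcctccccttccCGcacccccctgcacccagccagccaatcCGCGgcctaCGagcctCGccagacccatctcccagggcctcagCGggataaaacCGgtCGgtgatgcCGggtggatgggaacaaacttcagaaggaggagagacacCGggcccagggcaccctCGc
EMX2 (chr10:117542496-117542795, plus strand): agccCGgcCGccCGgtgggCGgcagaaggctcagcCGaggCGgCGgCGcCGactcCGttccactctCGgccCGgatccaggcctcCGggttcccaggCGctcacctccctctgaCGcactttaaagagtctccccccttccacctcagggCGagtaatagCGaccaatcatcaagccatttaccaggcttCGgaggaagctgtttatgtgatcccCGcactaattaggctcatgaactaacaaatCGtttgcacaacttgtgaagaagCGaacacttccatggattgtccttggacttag
GATA3 (chr10:8053391-8053690, plus strand): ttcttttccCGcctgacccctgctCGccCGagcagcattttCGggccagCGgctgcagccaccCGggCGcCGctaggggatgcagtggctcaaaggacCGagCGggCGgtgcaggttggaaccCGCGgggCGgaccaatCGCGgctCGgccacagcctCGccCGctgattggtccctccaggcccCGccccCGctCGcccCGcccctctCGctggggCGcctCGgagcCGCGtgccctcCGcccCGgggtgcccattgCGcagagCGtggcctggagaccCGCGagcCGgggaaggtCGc
The PAX8 window held 13 CpG and was 62.0% G or C, the EMX2 window held 21 CpG at 58.0%, and the GATA3 window held 36 CpG at 74.7%. The median over all 35116 windows was 14 CpG. The GATA3 window was picked for its CpG count, and the other GATA3 windows held from 5 to 29 CpG. HNF4A, which was also counted in a few fragments, had windows with 11 and 9 CpG, fewer than the PAX8 window, so the members with the fewest fragments lay on both sides of PAX8. The letters CCAAT, searched on both strands, occurred 2 times in the PAX8 window, 1 time in the EMX2 window and 2 times in the GATA3 window, and 34.6% of all windows held them. The letters TATAAA were in none of these 3 windows, occurred 1 time in another GATA3 window, and were in 11.5% of all windows. The letters GCGTGAC, a core of the sites bound by paired domains, were in none of the 19 member windows and in 2.52% of all windows. A match of letters is a description of the window and not a bound site.

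The knockout library held 50670012 fragments in genes and the wild-type library 62304084. SETD2 was counted in 1404 knockout fragments and in 4908 wild-type fragments, a ratio of 0.334 with an interval of 0.314 to 0.354. Here and below a ratio is knockout over wild type after scaling by library size as adjusted by the TMM method, not by these totals. Its interval is the exact 95% interval from counting error alone. With 1 library per line there was no replicate, no test was made, and each difference compares these 2 libraries. A call of higher or lower required the entire interval to exceed 1.5-fold. The line's label was checked against 8 markers of renal carcinoma cells. The simple-epithelial keratin KRT8 stood at 211 RPKM in the knockout and 239 RPKM in the wild-type library, and VIM, the intermediate filament vimentin, at 1192 RPKM in the knockout and 1734 RPKM in the wild-type library, whereas CA9, a hypoxia-induced carbonic anhydrase, had 0 knockout and 1 wild-type fragments. Of these 8 markers 7 were measured, 0 called higher and 2 lower, while 10.4% of all genes tested were called higher and 9.17% lower. NDUFA4L2, called lower, had 4 knockout and 27 wild-type fragments, at 0.0484 RPKM in the knockout and 0.265 RPKM in the wild-type library. VIM, the other, was not called with total count or upper quartile scaling, as a ratio of RPKM, at 2-fold or relative to its 50 nearest genes. RPKM is the deposited read count per kilobase of transcript, scaled to the library's read total.

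Members of this set also serve in other cell types, GATA3 in T cells, MECOM in endothelium and WT1 in mesothelium, so markers of those cells were read beside them. The 12 T cell and leukocyte markers summed to 20.6 RPKM in the knockout and 9.33 RPKM in the wild-type library, and CD3E, CD3G and CD2 were at 0 in both libraries, and PTPRC, the pan-leukocyte phosphatase, had 1 knockout and 2 wild-type fragments. IL7R, a cytokine receptor subunit, was the exception at 20.4 RPKM in the knockout and 9.10 RPKM in the wild-type library, and LCK and ITGAM were at 0.0579 and 0.185 RPKM in the knockout and 0.0783 and 0.111 RPKM in the wild-type library. The 10 endothelial markers summed to 0.730 RPKM in the knockout and 0.828 RPKM in the wild-type library, with PECAM1 at 0 knockout and 1 wild-type fragments and ESAM, ROBO4 and TIE1 the most abundant of them. The 6 mesothelial markers summed to 62.0 RPKM in the knockout and 73.8 RPKM in the wild-type library. LRRN4 stood at 60.2 RPKM, CALB2 at 1.09, UPK3B at 0.528 and MSLN, mesothelin itself, at 0.157 RPKM in the knockout library. In the wild-type library LRRN4 stood at 73.0 RPKM, CALB2 at 0.365, UPK3B at 0.421 and MSLN at 0.0638 RPKM. The 8 fibroblast and pericyte markers summed to 3.55 RPKM in the knockout and 3.03 RPKM in the wild-type library, mostly COL1A1, RGS5 and LUM, and DCN had 0 knockout and 2 wild-type fragments. The part of such cells in the levels of the members was not tested.

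Of the 8 factors, 5 were clearly transcribed in both libraries and 3 were at the edge of detection. In the knockout library PAX8 was highest at 30.9 RPKM (interval 30.3 to 31.6), followed by LHX1 at 9.37, WT1 at 4.15, MECOM at 2.99 and PAX2 at 1.77 RPKM. In the wild-type library PAX8 stood at 43.7 RPKM (interval 43.0 to 44.4), followed by WT1 at 5.81, LHX1 at 3.37, MECOM at 2.12 and PAX2 at 2.08 RPKM. Neighbours in these orders had counting intervals that did not overlap, except MECOM and PAX2 in the wild-type library, with intervals of 2.01 to 2.25 and 1.93 to 2.24 RPKM. LHX1 and WT1 exchanged places between the libraries. GATA3, HNF4A and EMX2 were at or below 0.0646 RPKM in each library. PAX8 ranked 1725 of 23375 rows by RPKM in the knockout library and 1254 in the wild-type library, and LHX1 ranked 5144 in the knockout and 8530 in the wild type. PAX8 made up 62.8% of the summed RPKM of the 8 genes in the knockout and 76.4% in the wild-type library, and LHX1 19.0% in the knockout and 5.88% in the wild type. The sum itself was 49.3 RPKM in the knockout and 57.2 RPKM in the wild-type library.

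**Figure D1:**
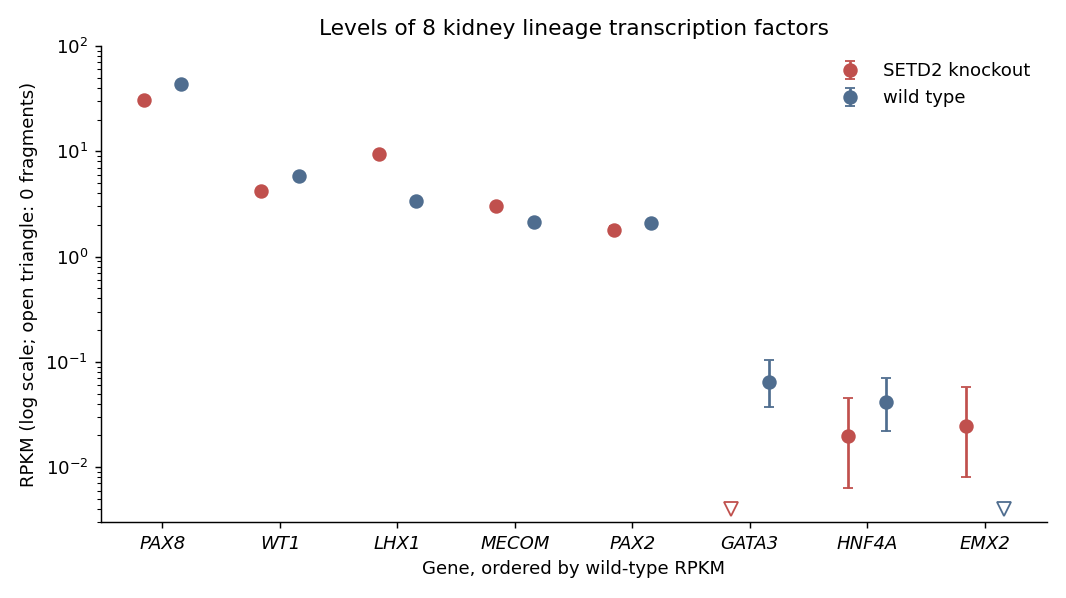
Deposited RPKM of each factor (log axis) in the SETD2 knockout library (red, left point of each pair) and the wild-type library (blue, right point), with 1 library per group, bars for the exact 95% counting interval (hidden by the points where short) and open triangles for 0 fragments. PAX8 led in both libraries, at 30.9 RPKM in the knockout and 43.7 RPKM in the wild type, and LHX1 was the clearly transcribed factor that stood highest above its wild-type level, at 9.37 RPKM in the knockout against 3.37 RPKM in the wild type.

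PAX8 (hg19 chromosome 2, 113973574 to 114036498) was counted in 8728 knockout and 15208 wild-type fragments. Its ratio of 0.669, with an interval of 0.652 to 0.687, lay below 1, and the interval spanned the limit of 1.5-fold, so PAX8 was not called. Of all genes tested, 16.7% had a lower log2 ratio than PAX8. PAX2 (chromosome 10, 102505468 to 102589698) had 519 knockout and 751 wild-type fragments, a ratio of 0.806 with an interval of 0.719 to 0.903, and it too was not called. Within a library, PAX2 per length stood at 0.0573 of PAX8 in the knockout (interval 0.0523 to 0.0626) and at 0.0476 in the wild type (interval 0.0442 to 0.0512). PAX8 was thus by far the more abundant of this pair of paralogs in both lines. LOC654433, a non-coding row that lies inside PAX8, had 70 knockout and 93 wild-type fragments. Of the 50-base words of PAX8 transcripts in GENCODE 29, 5.90% also occurred on either strand in PAX8-AS1 and none in PAX2, and whether counting used strand is not known here.

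LHX1 (chromosome 17, 35294772 to 35301915) was the 1 member called higher, at 2238 knockout and 990 wild-type fragments. Scaled to the adjusted library size this was 43.0 CPM (fragments scaled to a fixed library size) in the knockout and 16.3 CPM in the wild-type library. The ratio was 2.64 with an interval of 2.45 to 2.84. A higher log2 ratio was found in 9.52% of all genes tested. Its place relative to the other abundant members differed between the libraries. PAX8 per length stood at 3.30 times LHX1 in the knockout (interval 3.15 to 3.46) and at 13.0 times LHX1 in the wild type (12.2 to 13.9). LHX1 stood at 2.26 times WT1 in the knockout and at 0.579 of WT1 in the wild type. Of the words of LHX1 transcripts, 6.56% were shared with other genes, nearly all with the GENCODE gene AC243773.1 and 4 with its paralog LHX5, which had no fragment in either library.

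WT1 (chromosome 11, 32409322 to 32457081) had 957 knockout and 1651 wild-type fragments, a ratio of 0.676 with an interval of 0.624 to 0.733. It was not called, and its ratio was close to that of PAX8. PAX8 per length stood at 7.45 times WT1 in the knockout (interval 6.97 to 7.98) and at 7.53 times WT1 in the wild type (7.15 to 7.93), intervals that overlap. WT1-AS, an RNA that starts beside WT1 on the other strand, had 87 knockout and 117 wild-type fragments, a ratio of 0.867 with an interval of 0.649 to 1.15. MECOM (chromosome 3, 168801287 to 169381563) had 1420 knockout and 1243 wild-type fragments, a ratio of 1.33 with an interval of 1.23 to 1.44, above 1 and not called. WT1 per length stood at 1.39 times MECOM in the knockout (interval 1.28 to 1.51) and at 2.74 times MECOM in the wild type (2.54 to 2.95).

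The remaining members were counted in a few fragments. GATA3 (chromosome 10, 8096667 to 8117164) was the 1 member called lower, with 0 knockout and 17 wild-type fragments. A count of 0 in the knockout library allows up to 3 fragments, or 0.0577 CPM, against 0.280 CPM in the wild-type library, so GATA3 was at least 4.86-fold lower by that floor, and its exact interval started at 3.54-fold. Its level of 0.0646 RPKM in the wild-type library ranked 14665 of 23375 rows. EMX2 (chromosome 10, 119301956 to 119309057) went the other way, with 5 knockout and 0 wild-type fragments, at least 1.94-fold higher if 3 wild-type fragments are allowed for. Its exact interval started at 1.07-fold, and EMX2 was not called. EMX2OS, the antisense gene that overlaps it, had 1 knockout and 0 wild-type fragments. HNF4A (chromosome 20, 42984441 to 43060030) had 5 knockout and 13 wild-type fragments, a ratio of 0.449 with an interval of 0.125 to 1.34, so that no difference was detectable at this depth. FLJ45983 beside GATA3, R3HDML beside HNF4A and MIR3646 within it had 0 fragments in both libraries. In a pool of cells, fewer cells with a transcript and less of it per cell cannot be told apart.

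**Figure D2:**
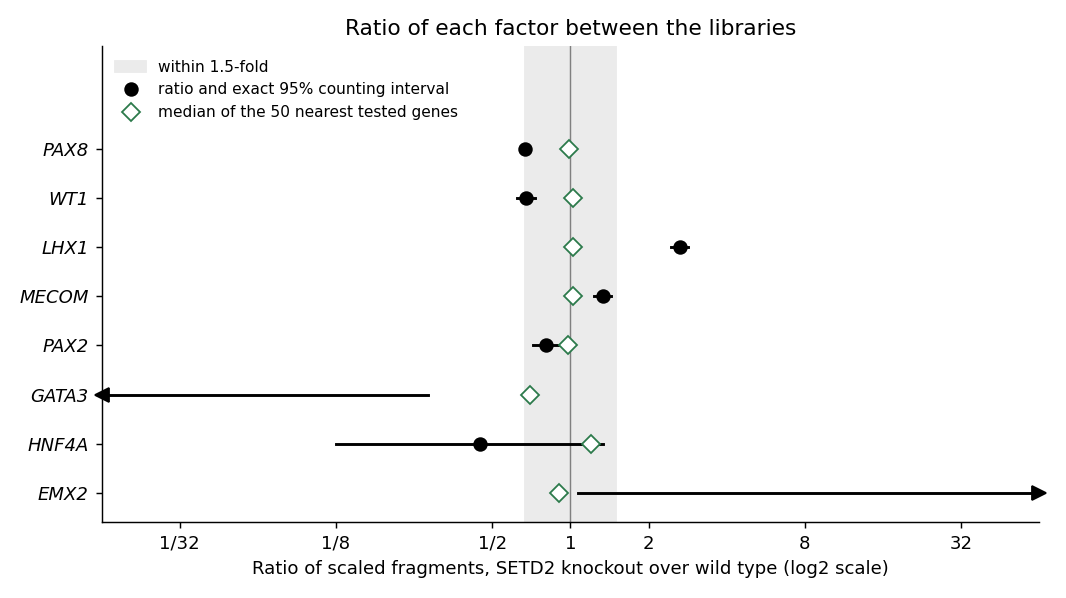
Ratio of scaled fragments, SETD2 knockout over wild type, for each factor on a log2 axis, with its exact 95% counting interval (arrows: the interval runs past the axis), the range within 1.5-fold shaded, and the median of the 50 nearest tested genes as an open diamond. The intervals of LHX1, from 2.45, and of GATA3, up to 0.283, lie wholly outside the shaded range, and those of the other 6 factors reach into it.

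The count of calls among the members was close to the background of all genes. Of 8 members, all of which had at least 10 reads over both libraries, 1 was called higher and 1 lower, while 10.4% of the 16894 genes tested were called higher and 9.17% lower. LHX1 and GATA3 were also beyond 2-fold by their whole interval, which 5.75% of genes tested were in the higher and 3.37% in the lower direction. The share depends on abundance. Among genes with at least 5 and under 50 fragments over both libraries, as for GATA3, EMX2 and HNF4A, 3.36% were called lower and 13.9% higher. Among genes with at least 500 and under 5000 fragments, as for LHX1, WT1, MECOM and PAX2, 8.41% were called higher and 10.3% lower, and among genes with 5000 or more, as for PAX8, 3.96% were called higher and 11.4% lower. The median log2 ratio of the members was -0.44, and that of all genes tested 0.02.

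The surroundings of the called members on their chromosomes differed. The 50 tested genes nearest to LHX1 spanned 33.3 to 37.2 Mb of chromosome 17, and their median log2 ratio was 0.04, with 4 called higher and 1 lower. Its direct neighbour AATF, an antagonist of apoptosis 4.26 kb away, had 5095 knockout and 6382 wild-type fragments and a ratio of 0.931 (interval 0.897 to 0.966). The other nearest tested genes were GGNBP2, DHRS11, MRM1 and the lipogenic enzyme ACACA, with ratios of 1.05, 0.817, 0.932 and 0.825, and C17orf78 at 10 knockout and 3 wild-type fragments. None of these 6 neighbours was called. Around GATA3 the median lay below 0. The 50 tested genes nearest to it spanned 3.11 to 14.4 Mb of chromosome 10, and their median log2 ratio was -0.52, with 23 called lower and 7 higher. KIN, ATP5C1 and TAF3 on one side had ratios of 0.755, 0.756 and 0.709. On the other side the nearest tested genes lay much farther off, SFTA1P at 2709 kb, CELF2 at 2930 kb and USP6NL at 3385 kb. SFTA1P, at 124 knockout and 9 wild-type fragments, and CELF2, at 17 knockout and 2 wild-type fragments, were called higher. USP6NL had a ratio of 0.741. GATA3 stood below 49 of these 50 genes, at -4.39 log2 units relative to their median with 0.5 fragments added per library. The other members had local medians from -0.15 around EMX2 to 0.26 around HNF4A. Taken relative to the median of its 50 nearest genes, GATA3 was again called lower, with a ratio interval reaching up to 0.406.

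**Figure D3:**
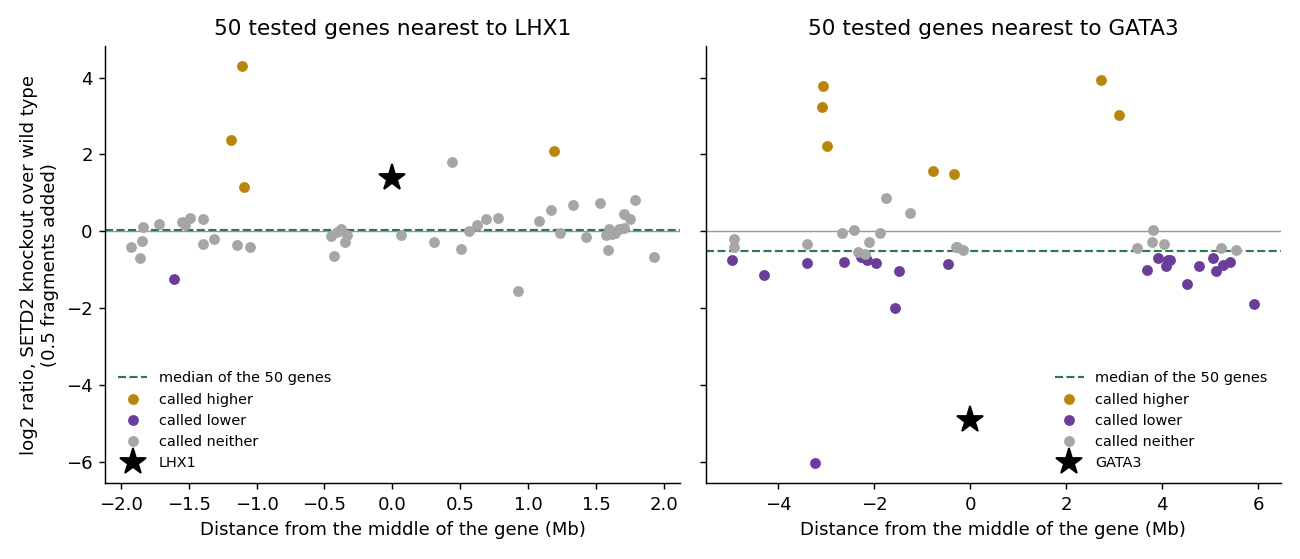
The log2 ratio, SETD2 knockout over wild type with 0.5 fragments added, of the 50 tested genes nearest to LHX1 (left) and GATA3 (right) against distance from the middle of the gene in Mb, with the gene itself as a star and the median of the 50 as a dashed line. LHX1 stands above genes with a median of 0.04, and GATA3 lies below genes whose median is itself -0.52.

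Most paralogs of the members were barely counted or not called. Of 26 listed, 12 had enough reads, 1 was called higher and 0 lower, with a median log2 ratio of -0.10. For all genes tested, 10.4% were called higher and 9.17% lower. PAX9, a paired-domain factor of pharyngeal and skeletal development, was the called gene (2 with undivided counts), at 47 knockout and 5 wild-type fragments, a ratio of 11.0 with an interval of 4.38 to 35.3. HNF4G, the close relative of HNF4A, was far more abundant than HNF4A itself, at 2.95 RPKM in the knockout and 3.25 RPKM in the wild-type library, and was not called (ratio 0.858, interval 0.784 to 0.939). GATA2 and GATA6 stood at 1.36 and 2.99 RPKM in the knockout and 1.90 and 2.81 RPKM in the wild type, neither called, in contrast to the 0.0646 RPKM of GATA3 in the wild type. HNF4G, GATA2 and GATA6 are named here after their values were seen.

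None of the cofactors found, through which the members act, had a count of 0 in either library, though LDB2 had only 3 wild-type fragments. Of 25 listed, 24 were found and measured, 4 called higher and 3 lower, with a median log2 ratio of 0.15. Over all genes tested, the shares called were 10.4% higher and 9.17% lower. PAXIP1, which links PAX proteins to a histone methyltransferase complex, was 1.76-fold lower, at 926 knockout and 1897 wild-type fragments. LMO4, a LIM-only protein that competes for the LDB proteins bound by LHX1, was 1.69-fold lower, at 1502 knockout and 2968 wild-type fragments. LDB2, one of those LIM-domain-binding proteins, had 74 knockout and 3 wild-type fragments (interval 9.47 to 143). The more abundant LDB1 stood at 12.8 RPKM in the knockout and 8.85 RPKM in the wild type and was not called, with a ratio of 1.37. ZFPM2, a partner of GATA factors, was 3.50-fold higher, at 234 knockout and 78 wild-type fragments. Relative to the median of their 50 nearest genes, PAXIP1 stood at -0.21 and LMO4 at -0.32 on the log2 scale and neither was called, which left 1 cofactor called lower, SSBP2, another partner of LDB1 (152 knockout and 326 wild-type fragments, -1.07 relative to its nearest genes). At the 2-fold limit 0 cofactors were called lower. LDB1 and SSBP2 are named after their values were seen.

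Most other transcription factors of kidney development were measured and not called. Of 42 listed, 33 were measured, 3 were called higher and 1 lower, and the median log2 ratio was 0.34, against 0.02 for all genes. The shares of all genes tested that were called were 10.4% higher and 9.17% lower. SIM1, a factor of the hypothalamus that also acts in the zebrafish kidney, was 2.28-fold higher, at 287 knockout and 147 wild-type fragments. MAF, a basic leucine zipper factor, was 1.59-fold lower, at 2572 knockout and 4762 wild-type fragments, just past the limit. With total count or upper quartile scaling, and as a ratio of RPKM, 5 of these genes were called higher and 0 lower, with undivided counts 9 were called higher, and at the 2-fold limit 1. The call of MAF was lost with total count or upper quartile scaling, as a ratio of RPKM, with a minimum of 50 reads, and with the stricter 99% interval or 2-fold limit. TCF21, FOXI1, IRX2, TFAP2B and ELF5 had 0 fragments in both libraries.

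Of the signals and surface proteins of the forming kidney, 29 were listed and 17 measured, with 7 called higher and 2 lower and a median log2 ratio of 0.99. Among all genes tested 10.4% were called higher and 9.17% lower. Of those with at least 5 and under 50 fragments, 13.9% were called higher and 3.36% lower. This list, like the others, was chosen with earlier results of these data known. With at least 50 reads over both libraries 4 of the list were called higher, and with undivided counts 4 lower. At the 2-fold limit 2 were called higher and 1 lower, against 5.75% and 3.37% of all genes tested. FGF9, a growth factor that maintains nephron progenitors in mice, had 21 knockout and 2 wild-type fragments (interval 2.99 to 108), and SLIT2, a ligand of ROBO receptors, was 2.47-fold higher, at 322 knockout and 152 wild-type fragments. GFRA1, the receptor subunit that binds GDNF, was 1.77-fold lower, at 14.7 RPKM in the knockout and 24.5 RPKM in the wild type. The adhesion molecule NCAM1 was 3.89-fold lower, at 2.78 RPKM in the knockout and 10.2 RPKM in the wild type. RET, the kinase that pairs with GFRA1, had 4 knockout and 2 wild-type fragments.

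**Figure D4:**
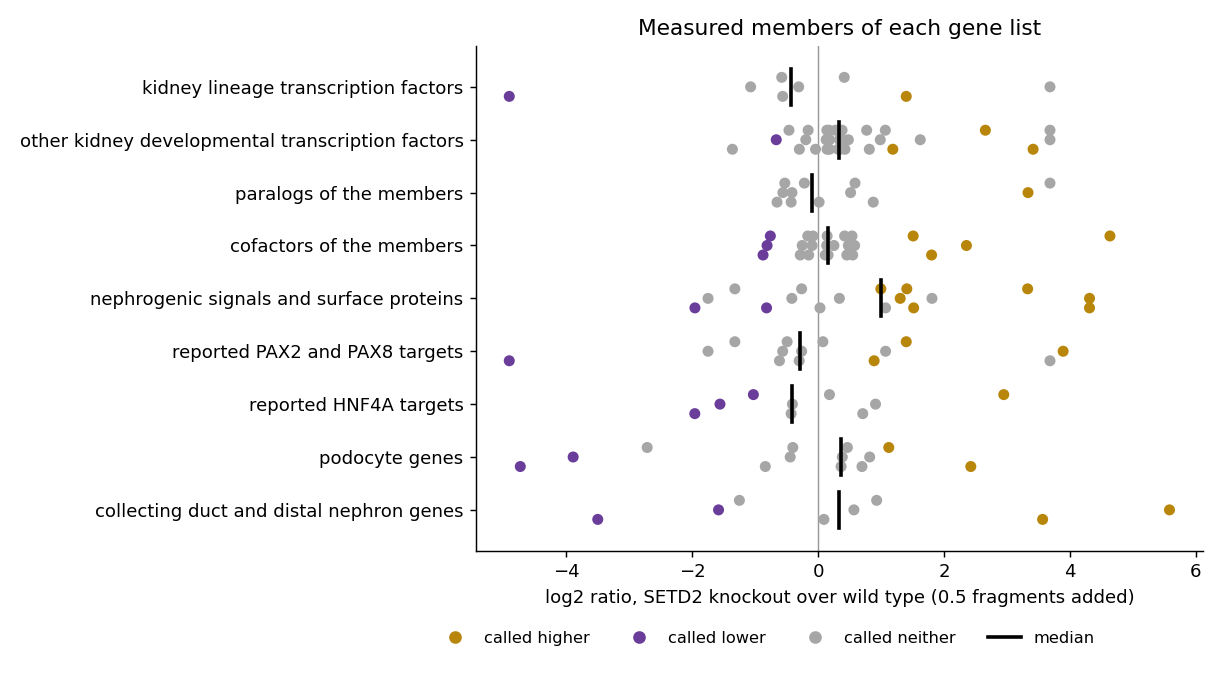
The log2 ratio, SETD2 knockout over wild type with 0.5 fragments added, of every measured gene in 9 lists, coloured by its call, with the median of each list as a black bar. The 8 factors have a median of -0.44 and the signals and surface proteins a median of 0.99, and every list but the paralogs holds genes called in both directions.

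Genes reported as targets of PAX2 and PAX8 include several from mouse or thyroid. These targets were called in both directions, while 10.4% of all genes tested were called higher and 9.17% lower. Of 16 listed, 14 were measured, 3 called higher and 1 lower, with a median log2 ratio of -0.28. Both calls among the members, LHX1 and GATA3, belong to this list and are counted in it. With at least 50 reads 0 were called lower, and 3 with undivided counts or relative to the 50 nearest genes. TG, the thyroglobulin gene that PAX8 drives in thyroid, had 44 knockout and 3 wild-type fragments (interval 5.48 to 86.1), and BCL2, an inhibitor of apoptosis named after its values were seen, was 1.85-fold higher, at 608 knockout and 383 wild-type fragments. Of 23 reported HNF4A targets, 9 were measured, 1 called higher and 3 lower, with a median of -0.41, and 8 had 0 fragments in both libraries. At the 2-fold limit 1 was called lower, and relative to the 50 nearest genes 2 were called higher. SERPINA1, which encodes alpha-1-antitrypsin, was 2.04-fold lower, at 18.4 RPKM in the knockout and 35.5 RPKM in the wild type. ASS1, a urea cycle enzyme, was 2.96-fold lower, at 1.39 RPKM in the knockout and 3.89 RPKM in the wild type. SLC17A1, a phosphate and urate transporter, had 102 knockout and 15 wild-type fragments, a ratio of 7.93 with an interval of 4.59 to 14.7.

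Genes of the nephron segments that these factors mark were called in both directions. The shares called among all genes tested were 10.4% higher and 9.17% lower. Of 15 podocyte genes, 13 were measured, 2 called higher and 2 lower, with a median log2 ratio of 0.36. With at least 50 reads 1 was called lower, and 4 with undivided counts. PODXL, the podocyte sialoprotein and a reported WT1 target, was 2.17-fold higher, at 3597 knockout and 1929 wild-type fragments, and ARHGAP24, a GTPase-activating protein, 5.40-fold higher, at 287 knockout and 62 wild-type fragments. NES, the intermediate filament nestin, was 15.3-fold lower, at 15 knockout and 268 wild-type fragments, and PTPRO, a podocyte phosphatase, had 0 knockout and 15 wild-type fragments, which is at least 4.29-fold lower if 3 knockout fragments are allowed for, with an exact interval from 3.08-fold. The 50 genes nearest to PODXL had a median log2 ratio of -0.68, and relative to it PODXL stood at 1.80 and was again called higher. With each podocyte gene taken relative to its 50 nearest genes, 3 were called higher and 3 lower. Of 15 collecting duct and distal nephron genes, 8 were measured, 2 called higher and 2 lower, with a median of 0.33. The water channel AQP3 had 9 knockout and 125 wild-type fragments, 11.9-fold lower, and SCNN1A, a subunit of the epithelial sodium channel, 46 knockout and 162 wild-type fragments, 3.02-fold lower. Relative to the median of its 50 nearest genes SCNN1A stood at -0.85 on the log2 scale and was not called. In that setting 1 gene of this list was called lower and 3 were called higher. AQP4, another water channel, had 35 knockout and 3 wild-type fragments, and CALB1, the calcium buffer calbindin, had 20 knockout and 0 wild-type fragments, at least 7.78-fold higher if 3 wild-type fragments are allowed for, with an exact interval from 5.76-fold. With at least 50 reads 1 gene of this list was called higher. AQP2, the vasopressin-regulated water channel of the collecting duct, had no fragment in either library.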

How the data were processed

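One library of each line was analysed, grouped by its label. The authors deposited a read count and an RPKM value for every gene, as the file headers name them. The submitters' processing notes list hg19, TopHat2 2.0.6, Bowtie and HTSeq, without settings, annotation release or strand use.

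Of 23398 rows per table, 23375 were kept after leaving out Y rows of genes with an X row. All counts were even and were divided by 2 to give fragments. This assumes that each fragment was counted as 2 reads, which the processing notes do not state. TMM scaling (edgeR 4.0.16, R 4.3.3) used the 16894 genes that had 10 reads or more in total. Ratios carry exact conditional (Clopper-Pearson) 95% intervals, and 0.5 fragments were added for log2 values. RPKM intervals are exact Poisson intervals. Intervals and the floor of 3 fragments cover counting error only, and no p-value was computed. RefSeq synonyms matched 1 list symbol absent from the tables. RefSeq promoter coordinates (GRCh38.p14) were not mixed with hg19.

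The members and all 14 lists were chosen with earlier results of these data known. Named genes are the members, SETD2, rows within 10 kb of a member, the 3 nearest tested genes on each side of a called member, the 3 markers at the highest RPKM for each other cell type, and up to 2 higher and 2 lower genes of each list by the interval bound nearest to 1. Some genes that this rule names are not reported here. Others are marked or give zero or near-zero counts. Alternatives were total count, upper quartile and DESeq2 1.42.0 scaling, minimums of 1 and 50 reads, undivided counts, 99% intervals, 2-fold, 2 added fragments, the RPKM ratio, and ratios relative to the 50 nearest genes.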

Additional observations from a re-analysis of the deposited data

How the results depend on the processing

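No paired analysis was possible because each group has 1 library, and no library could be left out. Of the 8 members, LHX1 was called higher under all 11 alternatives, and GATA3 was called lower under the 10 that measured it. With at least 50 reads, GATA3, EMX2 and HNF4A were not measured, which left 0 members called lower. With undivided counts EMX2 was called higher (log2 ratio 4.61), so that 2 members were. Undivided counts narrow every interval, and whether each fragment was counted as 2 reads was not tested. The log2 ratio of PAX8 was -0.58, and -0.50 with total count scaling, -0.51 with upper quartile scaling and -0.50 as a ratio of RPKM, still not called. Total count scaling placed the median of all genes tested at 0.09, against 0.02. At 2-fold, 971 genes were called higher and 569 lower. The ranges over settings were 1.36 to 1.48 for LHX1, -0.60 to -0.49 for WT1, 0.38 to 0.49 for MECOM and -0.32 to -0.23 for PAX2. Differences under 1.5-fold, and members with a few fragments, are limited by the lack of replicates and by depth.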
